A study of Mus musculus with 6 samples.

Results

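The 10 genes described here make up the core of polyamine metabolism: 4 enzymes of synthesis (Odc1, Srm, Sms, Amd1), 2 antizymes (Oaz1, Oaz2), 1 antizyme inhibitor (Azin1) and 3 enzymes of catabolism (Sat1, Smox, Paox). They were taken by gene symbol from a table of 50686 mouse genes, each symbol matched exactly 1 row, and all 10 were among the 15458 genes that passed the filter on low counts. RNA was sequenced from natural killer (NK) cells sorted from mouse spleen. The Eumyc group (3 libraries) came from C57BL/6J mice given Eumyc lymphoma cells, a Myc-driven B cell lymphoma, by vein, with spleens taken on day 14, and the labels state no genotype for these hosts. The WT group (3 libraries) came from healthy C57BL/6J mice labelled wild type. All cells had been depleted of B cells, selected on CD49b beads and sorted as NK1.1 positive and TCR beta negative, but for every Eumyc sample the cells that the beads had not bound were sorted too. The lymphoma and this change of selection cannot be told apart in any difference below. The labels do not say that replicates came from separate animals, so p-values measure the spread between these samples, which may be technical.

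Polyamines (putrescine, spermidine and spermine) are small, positively charged molecules that bind RNA and DNA and that dividing cells need. Ornithine decarboxylase, encoded by Odc1, makes putrescine, and spermidine synthase (Srm) and spermine synthase (Sms) each add an aminopropyl group that S-adenosylmethionine decarboxylase (Amd1) supplies. Antizymes bind ornithine decarboxylase and deliver it to the proteasome, the antizyme inhibitor captures antizyme, and spermidine/spermine acetyltransferase (Sat1), spermine oxidase (Smox) and polyamine oxidase (Paox) turn the higher polyamines back. Odc1 is a textbook target of the transcription factor MYC, and activated lymphocytes are known to raise polyamine synthesis.

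The members moved in a divided way. Odc1 and Srm stood about as far above WT as each other, Azin1 and Oaz1 were higher by less, Smox was lower, and Sms, Amd1, Oaz2, Sat1 and Paox did not pass the test. In edgeR's quasi-likelihood fit over all genes, 4 of the 10 members were higher in Eumyc and 1 was lower at an adjusted p under 0.05. Among all 15458 genes, 48.8% were called, 25.7% as higher and 23.1% as lower, so the share of members called is close to that of genes in general. The same 5 members had no overlap in CPM between Eumyc and WT libraries, as had 60.2% of all genes (31.3% with Eumyc above and 28.9% with Eumyc below). The members' median log2 fold change was 0.16, beside -0.00499 over all genes.

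Library totals were 44456157 to 66615602 gene counts in Eumyc and 16407611 to 36534191 in WT, and CPM (counts scaled to a common library size) below are scaled with edgeR's TMM factors. The 10 NK markers summed to 12469 to 13574 CPM in Eumyc and 12387 to 12466 CPM in WT, and 0 of 10 were undetected. Of these, 2 were called higher (Gzmb and Il2rb) and 5 lower (Ncr1, Klrb1c, Eomes, Klrk1 and Klrd1). Gzmb averaged 2128 CPM in Eumyc and 638 CPM in WT, so the similar sums hide changes in both directions. NK transcripts were seen in all 6 libraries. Lists of 10 markers each of other cells were also higher in Eumyc: 7 monocyte or macrophage markers were called higher and 1 lower (Ccr2 and Csf1r were the most abundant in Eumyc, and Ly6c2 was the lower one), 9 of 10 neutrophil markers higher (Csf3r, S100a9), 9 of 10 B cell (Ighm, Cd22), 9 of 10 erythroid (Car2, Hbb-bs) and 7 of 10 dendritic cell (Itgax, Cd74). Of T cell markers 3 were higher and 2 lower (Cd3g, Cd28). Some named markers were abundant in WT too: Ccr2 had 785 to 908, Itgax 714 to 808, Ighm 177 to 184 and Car2 138 to 160 CPM there. The neutrophil gene Elane and the dendritic cell gene Siglech had 0 counts in all 3 WT libraries, and 0 markers were at 0 in any Eumyc library. WT 3 stood apart in cell division: 10 division genes, headed by Mki67 and Top2a, summed to 1947, 1974 and 2684 CPM in Eumyc 1, 2 and 3 and to 271, 253 and 610 CPM in WT 1, 2 and 3. The part of other cells, of dividing cells and of RNA content per cell in the results was not tested, and in sorted bulk cells they cannot be told apart from a change in each NK cell.

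**Figure D1:**
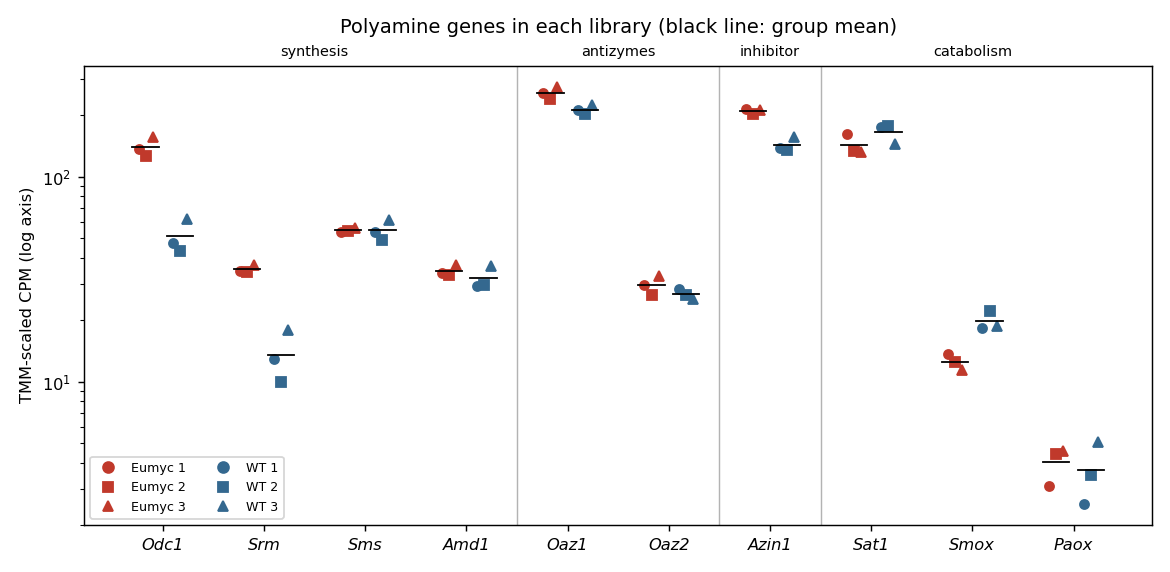
TMM-scaled CPM (log axis) of the 10 polyamine genes in the 3 Eumyc libraries (red, left of each pair) and the 3 WT libraries (blue), with black lines at the group means. For Odc1, Srm, Oaz1 and Azin1 every red point is above every blue point, for Smox every red point is below, and the other 5 genes overlap.

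Odc1 (ENSMUSG00000011179, chromosome 12 from 17544873 to 17551502 on GRCm38), the first and regulated step, had 136, 125 and 156 CPM in Eumyc 1, 2 and 3, against 47.3, 43.4 and 62.2 CPM in WT 1, 2 and 3. The lowest Eumyc library was above the highest WT library, WT 3. Its log2 fold change was 1.46 (SE 0.14, adjusted p = 0.000222), a 2.74-fold higher level, and stayed between 1.36 and 1.63 when any 1 library was left out. This change ranked 1224th from the top among the 15458 tested genes.

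Srm (ENSMUSG00000006442, chromosome 4 from 148591503 to 148594993), which makes spermidine, had 34.6, 34.3 and 37.0 CPM in Eumyc, against 12.8, 9.95 and 17.8 CPM in WT. The Eumyc libraries lay close together and the WT libraries spread more widely, with WT 3 the highest of them. The log2 fold change was 1.40 (SE 0.18, adjusted p = 0.000629), or 2.64-fold, and ranked 1260th, near that of Odc1.

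The other synthesis enzymes did not pass the test. Sms (ENSMUSG00000071708, chromosome X from 157443855 to 157492287), which makes spermine, had 53.8, 54.3 and 56.0 CPM in Eumyc, against 53.7, 49.0 and 61.7 CPM in WT. The Eumyc values lay inside the WT range, and the log2 fold change was 0.00 (SE 0.09, adjusted p = 0.998), between -0.07 and 0.10 when any 1 library was left out. Amd1 (ENSMUSG00000075232, chromosome 10 from 40287458 to 40302186), which supplies the aminopropyl donor, had 34.0, 33.1 and 36.9 CPM in Eumyc, against 29.3, 29.6 and 36.6 CPM in WT. WT 3 alone overlapped the Eumyc libraries. Its log2 fold change was 0.13 (SE 0.10, adjusted p = 0.337), and without WT 3 it was 0.24 with an adjusted p of 0.0469. Whether the changes of Odc1 and Srm differ from those of Sms and Amd1 was not tested, and the ratios below give the values.

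The promoter windows of a higher and an uncalled member are shown because MYC and MAX bind the E-box CACGTG. RefSeq sequence on GRCm38.p6 covered 250 bases before the start for 8 of the 10 members, and CACGTG, which reads alike on both strands, was in such a window of 1 member, Sms, before 1 of its 2 listed starts. It occurs in 6.02% of 32851 such windows over all genes, and in at least 1 window of 6.86% of 27025 genes. The bases from 250 to 101 before the start follow, 5′ to 3′ on the gene's strand, with CACGTG in capitals.
Odc1 promoter (chr12:17544623-17544772, plus strand): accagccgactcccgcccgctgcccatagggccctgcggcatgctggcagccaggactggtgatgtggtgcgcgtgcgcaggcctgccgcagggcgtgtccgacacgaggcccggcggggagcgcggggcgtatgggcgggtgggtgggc
Sms promoter (chrX:157492388-157492537, minus strand): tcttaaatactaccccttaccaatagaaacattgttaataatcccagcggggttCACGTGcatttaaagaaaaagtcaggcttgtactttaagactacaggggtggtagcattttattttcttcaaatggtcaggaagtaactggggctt
The Odc1 window thus lacks these letters, and the Sms window shown holds them 196 bases before that start. A match here is a description of letters and not of binding, and the introns of Odc1 were not searched.

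The antizymes carry their control in the coding sequence. Their reading frame meets an early stop codon, and polyamines make ribosomes skip 1 base there, so that antizyme protein is made when polyamines are plentiful. GENCODE M21 transcripts show the site in both genes, with the codon before the stop and the stop itself in capitals, and 28 of the 30 bases are the same.
Oaz1 (chr10:80828280-80828309, GRCm38, plus strand): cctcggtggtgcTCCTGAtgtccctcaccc
Oaz2 (chr9:65686257-65686286, GRCm38, plus strand): cctctgtggtgcTCCTGAtgcccctcaccc
Skipping the T of the stop at position 80828295 on chromosome 10 opens the frame for 151 more codons of the Oaz1 transcript shown. Read counts per gene do not show how often this happens.

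Oaz1 (ENSMUSG00000035242, chromosome 10 from 80826656 to 80829290) had 254, 240 and 275 CPM in Eumyc, against 210, 202 and 223 CPM in WT. All Eumyc libraries were above all WT libraries, by a small margin. The log2 fold change was 0.28 (SE 0.07, adjusted p = 0.0103), a 1.21-fold higher level. Oaz2 (ENSMUSG00000040652, chromosome 9 from 65668001 to 65690300) had 29.7, 26.4 and 32.9 CPM in Eumyc, against 28.2, 26.4 and 25.1 CPM in WT. The groups overlapped, and the log2 fold change was 0.16 (SE 0.10, adjusted p = 0.231).

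Azin1 (ENSMUSG00000037458, chromosome 15 from 38487430 to 38519266), which resembles ornithine decarboxylase but has no enzyme activity and takes antizyme away from it, had 214, 202 and 211 CPM in Eumyc, against 138, 135 and 156 CPM in WT. The groups were apart by more than the spread within either. Its log2 fold change was 0.55 (SE 0.07, adjusted p = 0.000492), or 1.46-fold.

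**Figure D2:**
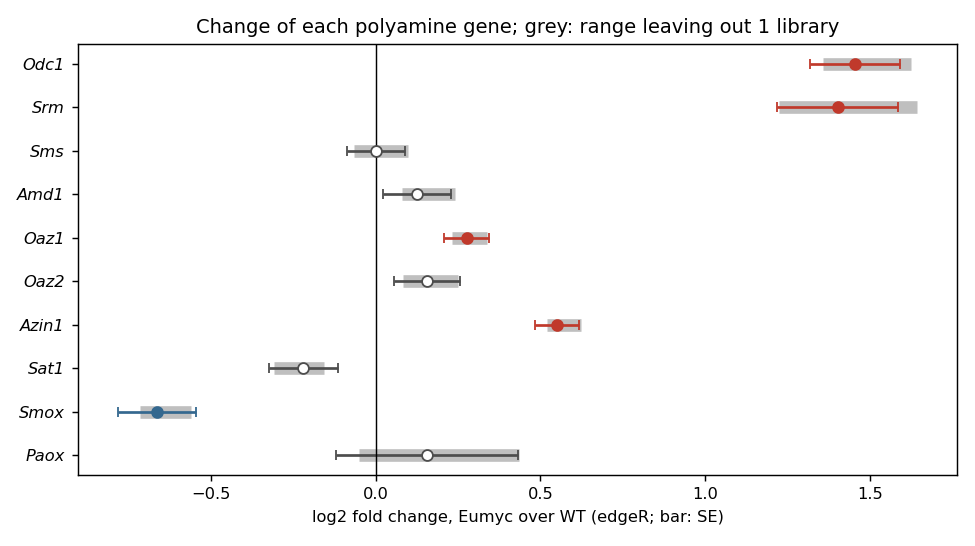
Log2 fold change of Eumyc over WT for each member from edgeR with its standard error. Filled points passed an adjusted p of 0.05, and grey bars span the values when any 1 library was left out. Odc1 and Srm lie at 1.46 and 1.40, Azin1 at 0.55, Oaz1 at 0.28 and Smox at -0.66, while the open points of Sms, Amd1, Oaz2, Sat1 and Paox did not pass.

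Catabolism went the other way in 1 of 3 genes. Smox (ENSMUSG00000027333, chromosome 2 from 131491496 to 131525922), which oxidises spermine to spermidine, had 13.6, 12.5 and 11.3 CPM in Eumyc, against 18.3, 22.2 and 18.7 CPM in WT. Every Eumyc library was below every WT library. It fell by 0.66 on the log2 scale (SE 0.12, adjusted p = 0.00251), to 0.631 of the WT level. Among the members it also had no stretch of 50 bases in common with any other annotated transcript.

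Sat1 (ENSMUSG00000025283, chromosome X from 155213132 to 155216449), which acetylates spermidine and spermine for export or oxidation, had 162, 133 and 132 CPM in Eumyc, against 175, 177 and 144 CPM in WT. Eumyc 1 lay above WT 3, so the groups overlapped, and the log2 fold change of -0.22 (SE 0.105) did not pass (adjusted p = 0.115). It passed without Eumyc 1 (-0.31, adjusted p = 0.0356) and without WT 3 (-0.30, adjusted p = 0.0286). Eumyc 1 also had the highest sum over the 10 monocyte and macrophage markers, at 2194 CPM. The sums were 1562 and 1564 CPM in Eumyc 2 and 3 and 1092, 1082 and 1173 CPM in WT 1, 2 and 3. Within WT the order was the opposite, as WT 3 had the highest sum and the lowest Sat1. Ccr2 alone gave 1029, 1011 and 892 CPM of these sums in Eumyc 1, 2 and 3 and 785 to 908 CPM in WT. The sums are therefore no measure of how many such cells were present. The part of other cells in the Sat1 level was not tested.

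Paox (ENSMUSG00000025464, chromosome 7 from 140115799 to 140137224), a peroxisomal oxidase of acetylated polyamines, was the scarcest member, with 134, 288 and 306 counts in Eumyc and 70, 129 and 85 counts in WT. These are 3.09, 4.45 and 4.60 CPM in Eumyc, against 2.52, 3.49 and 5.09 CPM in WT, and the groups overlapped. The log2 fold change was 0.16 with an SE of 0.275, the widest of the members (adjusted p = 0.663).

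To compare levels between genes, CPM were divided by the kilobases of annotated exon. This length was far above that of the longest coding transcript for Sms (6010 against 3717 bases) and Oaz2 (2990 against 1843). The lengths were closer for Amd1 (3542 against 3204) and Srm (1599 against 1338). The order of genes with close values on this scale therefore depends on the length chosen, and no other length was tried. On this scale Oaz1 was the highest member, at 100.2 ± 6.91 in Eumyc and 82.8 ± 4.29 in WT (SD, n = 3 each), and Sat1 came next at 51.3 ± 6.16 in Eumyc and 59.6 ± 6.62 in WT. Odc1 stood just above Azin1 in Eumyc and just below it in WT. Odc1 averaged 40.9 ± 4.48 in Eumyc and 14.98 ± 2.91 in WT. Azin1 averaged 33.5 ± 1.01 in Eumyc and 22.9 ± 1.83 in WT, and in each group the libraries of these genes did not overlap.

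By its mean on this exon scale, Srm ranked above Oaz2, Amd1 and Sms in Eumyc and below all 3 in WT, where the means were close. It stood at 22.1 ± 0.901 CPM per kilobase in Eumyc and 8.46 ± 2.48 in WT (SD, n = 3 each), where its libraries overlapped those of all 3 genes and its level in WT 3 was above theirs. Oaz2, Amd1 and Sms lay between 8.89 and 9.92 on average in both groups. The libraries of Oaz2 overlapped those of Amd1 and of Sms in Eumyc, where Amd1 and Sms were apart, and in WT all 3 genes overlapped each other. Smox, at 3.21 ± 0.295 in Eumyc and 5.07 ± 0.549 in WT, and Paox, at 0.825 ± 0.170 in Eumyc and 0.754 ± 0.264 in WT, were the lowest.

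Set against its regulators within a library, Odc1 was raised over both. The ratio of Odc1 counts to those of both antizymes was 0.480, 0.471 and 0.505 in Eumyc 1, 2 and 3, against 0.198, 0.191 and 0.250 in WT 1, 2 and 3. The ratio of Odc1 to Azin1 was 0.636, 0.620 and 0.736 in Eumyc, against 0.344, 0.321 and 0.398 in WT. In both ratios the groups were well apart, with WT 3 the nearest WT library to Eumyc. Azin1 over the antizymes differed less, at 0.755, 0.760 and 0.687 in Eumyc and 0.577, 0.594 and 0.629 in WT. These ratios are descriptions and were given no test.

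Within synthesis, Odc1 over Amd1 averaged 4.01 ± 0.215 in Eumyc and 1.59 ± 0.119 in WT (SD, n = 3 each). Srm over Sms averaged 0.645 ± 0.0138 in Eumyc and 0.243 ± 0.0429 in WT. Both ratios therefore shifted toward the first-named gene in all 3 Eumyc libraries. The summed counts of the 4 synthesis genes over those of the 3 catabolic genes were 1.45, 1.65 and 1.93 in Eumyc, against 0.731, 0.652 and 1.06 in WT. Sat1 makes up most of the catabolic sum, and without it the ratio was 15.5, 14.6 and 17.9 in Eumyc, against 6.88, 5.14 and 7.48 in WT. Of the 4 synthesis genes only Odc1 and Srm had passed the test, and Odc1 had the most counts of them in every Eumyc library. Without Sat1 the catabolic sum is mostly Smox. These sums therefore follow a few genes and not each step of the pathway.

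**Figure D3:**
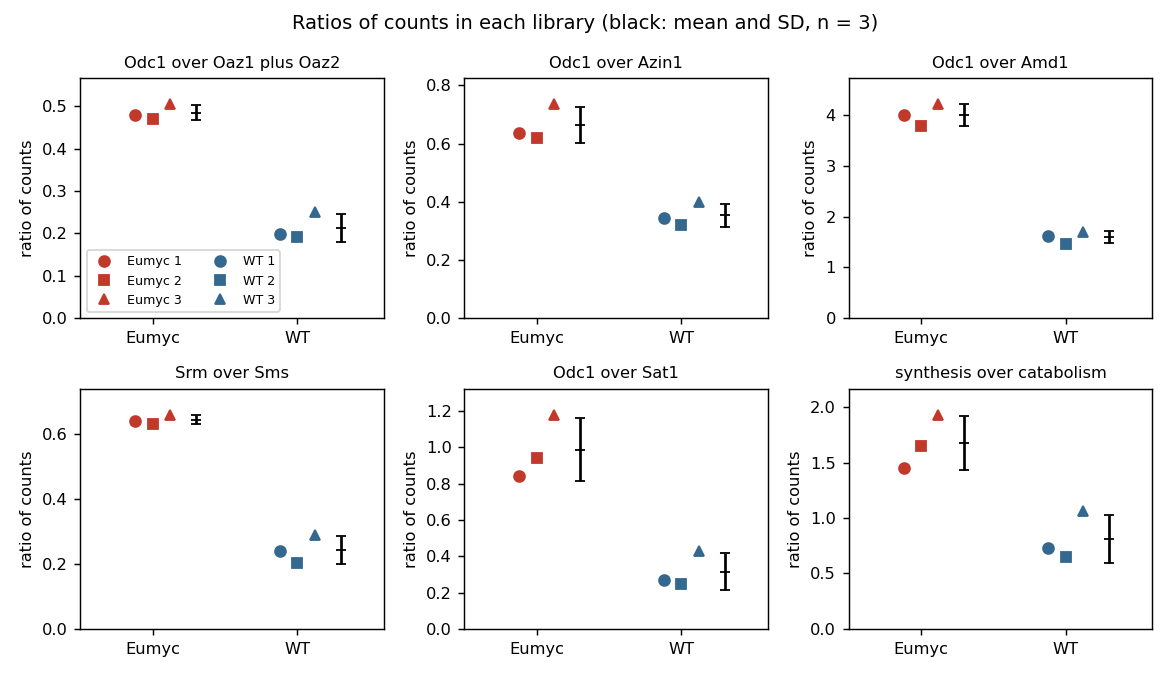
Ratios of raw counts within each library for 6 pairs of members or sums, Eumyc (red) left and WT (blue) right, with the mean and SD of 3 libraries in black. In all 6 panels the 3 Eumyc libraries lie above the 3 WT libraries, and WT 3 is the highest WT library in each.

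Within WT, the members also differed between libraries. WT 3, which held the most cell division transcripts of the WT libraries, exceeded the mean of WT 1 and 2 by 0.455 log2 units for Odc1, 0.64 for Srm, 0.31 for Amd1, 0.26 for Sms, 0.195 for Azin1 and 0.12 for Oaz1. Its largest excess was 0.76, for the scarce catabolic gene Paox, while the log2 difference was -0.29 for Sat1, -0.12 for Oaz2 and -0.11 for Smox. In Eumyc the library with the highest cell division sum was Eumyc 3. It exceeded the mean of Eumyc 1 and 2 by 0.29 for Paox, 0.25 for Odc1, 0.23 for Oaz2 and 0.155 for Oaz1. The excess was 0.14 for Amd1, 0.10 for Srm, 0.05 for Sms and 0.02 for Azin1. The log2 difference was -0.16 for Sat1 and -0.20 for Smox. Oaz2 thus went opposite ways in WT 3 and Eumyc 3. The part of dividing cells in these values was not tested.

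**Figure D4:**
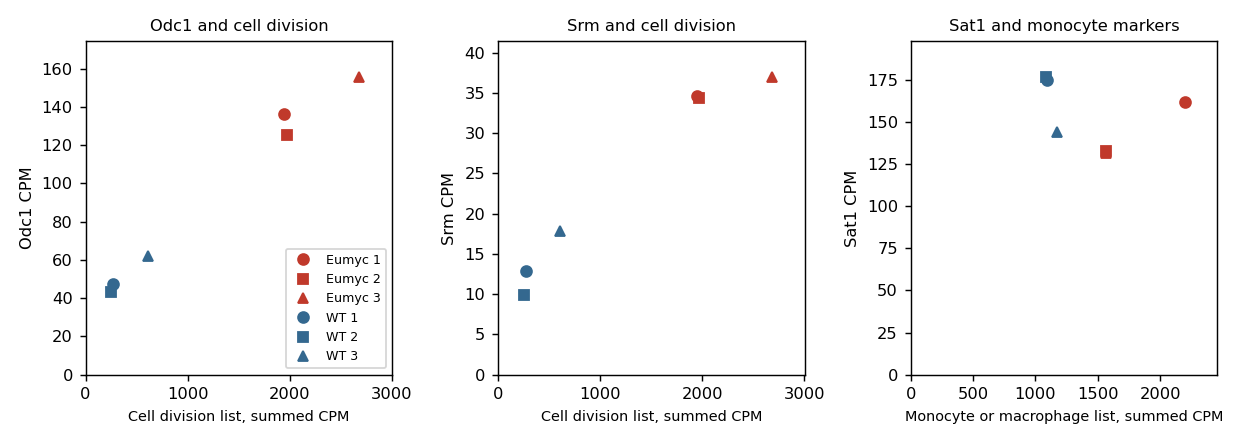
CPM of Odc1 and Srm against the summed CPM of 10 cell division genes, and CPM of Sat1 against the summed CPM of 10 monocyte or macrophage markers, 1 point per library (red Eumyc, blue WT). WT 3 is the highest WT point for Odc1, Srm and cell division, and Eumyc 1 is the highest Eumyc point for Sat1 and the monocyte markers. Among the WT points, WT 3 is the highest for the monocyte markers and the lowest for Sat1.

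Several members have near-identical copies in the genome, so part of their reads may have been lost or placed elsewhere. Of the 50-base stretches of the longest coding transcript, the share also found in transcripts of other genes was 87.6% for Amd1, mostly in the retrogene Amd2, 52.2% for Oaz1, 42.2% for Odc1, 28.9% for Paox and 28.7% for Sms. It was smaller for Oaz2, and was 7.28% for Sat1, 6.43% for Azin1, 2.40% for Srm and 0% for Smox. The values of Amd1, Oaz1 and Odc1 are therefore uncertain as levels. The 9 genes that share at least 100 such stretches with Odc1 held between 12.1% and 34.2% as many counts as Odc1 in a library. The protein-coding AW146154, which shares only 250 of the 2159 stretches, held 2386 of their 4370 counts. In WT 2, the library with the highest share, it held 414 of 549. This gene may have expression of its own. It is part of the Odc1 sum below, which was not run without it. The copy Oaz1-ps held 28.0% to 37.2% as many as Oaz1. With the copies added in, the log2 fold changes were 1.27 for Odc1 (adjusted p = 0.000200), 0.34 for Oaz1 (0.00354) and 0.15 for Amd1 (0.242), and the same numbers of members were called. Exons of Azin1 overlap Gm49077 on the opposite strand over 5.72% of their length and those of Paox overlap Echs1 over 2.89%, and the strand setting of the counting is not given in the sources used here.

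The authors' deposited table lists all 10 members, with a log2 fold change of 1.39 for Odc1, 1.30 for Srm, 0.54 for Azin1, 0.27 for Oaz1 and -0.65 for Smox, each at an adjusted p under 0.05, as 59.9% of the 10288 genes with an adjusted p in it had. The same table gives adjusted p-values of 0.963 for Sms, 0.391 for Amd1, 0.287 for Oaz2, 0.0669 for Sat1 and 0.726 for Paox.

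The lists around the core pathway are to be read beside all tested genes, of which 25.7% were called higher and 23.1% lower. Of 9 tested genes listed under ornithine and arginine supply, 5 were higher, 1 was lower and 3 did not pass, with a median log2 fold change of 0.47. The higher genes were Arg1, Ass1, Aldh18a1, Slc7a1 and Azin2, of which Azin2 captures antizyme and brings in no substrate. The lower gene was Slc7a2, of the same family as Slc7a1. It averaged only 0.291 CPM in Eumyc and 0.697 CPM in WT (log2 fold change -1.24, SE 0.396, adjusted p = 0.0308). Slc7a1, the cationic amino acid transporter that imports arginine, had 107, 108 and 124 CPM in Eumyc, against 62.5, 55.5 and 74.6 CPM in WT (log2 fold change 0.82, SE 0.11, adjusted p = 0.000687). Aldh18a1, which makes the precursor of proline and ornithine from glutamate, rose by 0.47 (SE 0.07, adjusted p = 0.00143). Oat, which links ornithine with that precursor, averaged 39.7 ± 5.62 CPM in Eumyc and 33.8 ± 1.57 CPM in WT and did not pass (adjusted p = 0.105).

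In the list of methionine, S-adenosylmethionine and its salvage, 5 of 11 tested genes were higher, 2 were lower and 4 did not pass (median 0.35), against 48.8% called among all genes. The amino acid transporter gene Slc7a5 had 36.7, 39.8 and 57.1 CPM in Eumyc, against 13.8, 8.08 and 17.7 CPM in WT (log2 fold change 1.78, SE 0.275, adjusted p = 0.00128). Ahcy, which clears S-adenosylhomocysteine, rose by 0.98 (SE 0.15, adjusted p = 0.00108). Mtap, which recycles the methylthioadenosine left by spermidine and spermine synthesis, rose by 0.57 (SE 0.13, adjusted p = 0.00700). The 2 lower genes were Adi1 (log2 fold change -0.54, SE 0.145, adjusted p = 0.0153) and Mat2b (-0.34, SE 0.055, adjusted p = 0.00156). Mat2a had a log2 fold change of 0.07 and did not pass (adjusted p = 0.421). The list thus did not rise as a whole.

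Spermidine is the source of hypusine, a modified amino acid of the translation factor eIF5A. Eif5a itself had 533, 556 and 602 CPM in Eumyc, against 331, 297 and 399 CPM in WT, with every Eumyc library above every WT library (log2 fold change 0.72, SE 0.11, adjusted p = 0.00106). Its paralog Eif5a2 fell by 0.36 (SE 0.105, adjusted p = 0.0208). The modifying enzymes Dhps and Dohh had log2 fold changes of 0.07 and 0.01 and did not pass (adjusted p = 0.480 and 0.916), so the list of 4 held 1 higher and 1 lower gene (median 0.04).

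In polyamine transport, 3 of 4 tested genes were lower and 1 was higher (median -0.27), against 23.1% lower and 25.7% higher among all genes, and the other 8 listed genes fell below the count filter. Atp13a2, which exports polyamines from lysosomes, had 103, 91.6 and 80.5 CPM in Eumyc, against 169, 184 and 127 CPM in WT. All Eumyc libraries were below all WT libraries, and it fell by 0.81 on the log2 scale (SE 0.14, adjusted p = 0.00213). Gpc1, a proteoglycan linked to polyamine uptake, fell by 0.35 (SE 0.06, adjusted p = 0.00135). Atp13a3, a related transporter, rose by 0.32 (SE 0.08, adjusted p = 0.00911).

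The proteasome, which degrades ornithine decarboxylase when antizyme is bound, rose nearly throughout: 30 of 31 core and 19S subunit genes were higher, 0 were lower, and Psmc6 did not pass (adjusted p = 0.241), with a median of 0.47. Psmb2, Psmb7 and Psma5 changed most, by 0.79 (SE 0.08), 0.71 (SE 0.08) and 0.62 (SE 0.105) on the log2 scale with adjusted p-values of 0.000262, 0.000336 and 0.00194.

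In the MYC network 2 of 10 tested genes were higher, 4 were lower and 4 did not pass (median -0.13), a share of calls near the 48.8% over all genes. Myc had 121, 116 and 95.4 CPM in Eumyc, against 58.3, 61.6 and 77.8 CPM in WT. The groups were apart. Myc was lowest in Eumyc 3 and highest in WT 3, and Odc1 was highest in both of these libraries. The log2 fold change of Myc was 0.75 (SE 0.125, adjusted p = 0.00176). The 10 B cell markers, which Myc-driven lymphoma cells would carry, summed to 306, 367 and 694 CPM in Eumyc, against 193, 203 and 199 CPM in WT. Ighm alone gave 248, 316 and 638 CPM of these sums in Eumyc 1, 2 and 3 and 177 to 184 CPM in WT. The sums therefore follow mostly 1 gene and are no measure of how many lymphoma cells were present. The part of such cells in the Myc level was not tested. Mxd4, a MAX partner that opposes MYC, fell by 0.95 (SE 0.09, adjusted p = 0.000247). Mxd3, a related gene known to follow the cell cycle, had 20.6, 20.9 and 31.9 CPM in Eumyc, against 0.721, 0.730 and 6.05 CPM in WT (log2 fold change 3.51, SE 0.69, adjusted p = 0.00373). Max, the shared partner, did not pass (adjusted p = 0.837).

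**Figure D5:**
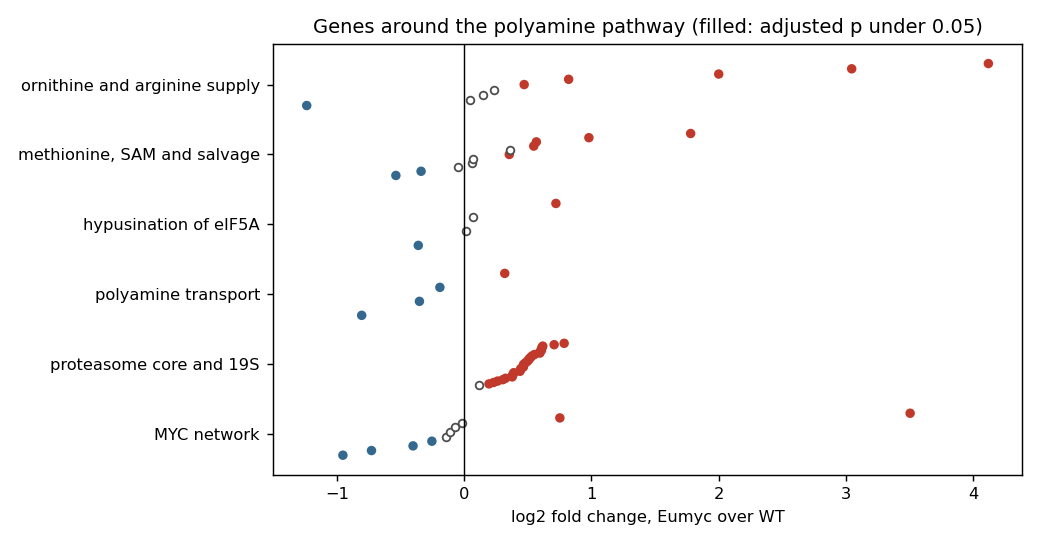
Log2 fold change of Eumyc over WT for each tested gene of 6 lists around the polyamine pathway, 1 point per gene, filled where the adjusted p was under 0.05 (red higher, blue lower in Eumyc). The proteasome genes form a narrow group between 0.11 and 0.79, while the other lists have points on both sides of 0.

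Across the 6 libraries, the pattern of Odc1 in log2 CPM was most like those of Slc25a5, Atp5b and Cs, with Pearson correlations of 0.9997, 0.9997 and 0.9995. Such high values were common: among 8999 genes averaging 10 CPM or more, 1494 correlated with Odc1 at 0.95 or more over these 6 points, which share the split into 2 groups. Among the members, Azin1 (0.995) and Srm (0.989) were closest to Odc1, and Smox (-0.963) ran most opposite to it.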

How the data were processed

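RNA of sorted splenic NK cells was analysed from 3 Eumyc and 3 WT libraries. The authors deposited whole-number counts per Ensembl gene, and STAR 2.5.2, HTSeq 0.6.1 and DESeq2 1.10.1 with mm10 and GRCm38 are named in the submitters' processing notes. The sources used here give neither annotation release nor strand setting. The authors' deposited table of their own comparison gave log2 fold changes and adjusted p-values, per the file headers, while its mean signal over libraries (normalized counts, by the authors), and its standard error and test score, also the authors', entered no result.

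Counts were tested here with edgeR 4.0.16 (filterByExpr at a minimum count of 10, TMM, quasi-likelihood test, two-sided, group alone), with Benjamini-Hochberg adjustment over 15458 genes. Standard errors came from the F statistic. Alternatives used DESeq2 1.42.0, limma 3.58.1, other scalings and filters, thinned counts, a replicate block and each library left out, and summing copies was chosen after seeing the data. Exon lengths and transcripts came from GENCODE M21 and promoters from RefSeq. The fits were tested on simulated counts in which 69, 67 and 64 of 15458 genes changed 1.5-fold, 2-fold and 4-fold. Of these, edgeR recovered 43.5%, 67.2% and 85.9%, and 9.09% of its 143 calls were false. For DESeq2 23.6% of 191 calls were false, and for limma voom 7.3% of 137. Far fewer genes changed in the simulation than the 48.8% called in the data. Its shares therefore do not give the recovery or the false calls among the results above.

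The members and lists were chosen with earlier results of these data known. Named were all 10 members, up to 3 called genes per related list with at least 10 CPM and the largest change, the 2 most abundant markers of each other list, and the 3 genes most like Odc1. Oat, Dhps, Dohh, Psmc6, Max, Arg1, Ass1, Azin2, Oaz3, Amd2, Sat2, Elane, Siglech and Ly6c2 were named outside this rule, after their values were seen. So were Slc7a2, Adi1, Mat2b, Mat2a and the NK markers Gzmb, Il2rb, Ncr1, Klrb1c, Eomes, Klrk1 and Klrd1.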

Additional observations from a re-analysis of the deposited data

How the results depend on the processing

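Over the alternatives, 4 members were higher in each except without WT 3, where Amd1 made 5, and 1 was lower except with the replicate block, without WT 3 and without Eumyc 1, where Sat1 made 2. Deviations of same-numbered libraries correlated at 0.0404, 0.0985 and 0.126, which is weak, but all 6 libraries correlated best with their own number. These values do not settle whether the replicate numbers pair the samples. The SE of Odc1 was 0.061 with the replicate block and 0.136 without it. Under the replicate block Sat1 had a log2 fold change of -0.22 (adjusted p = 0.0292), and the counts over all genes were 4176 higher and 3684 lower, in place of 3973 and 3576. With libraries left out, the members ranged from 4 to 5 higher and 1 to 2 lower, and the related lists from 41 to 46 higher and 6 to 10 lower (6 without WT 1, 7 without Eumyc 1), in place of 44 and 11. Sms, which was not called in any setting, had a negative log2 fold change with total counts (-0.0354), upper quartile scaling (-0.0390), a filter of 3 CPM (-0.00887) and thinned counts (-0.0360), and its values without 1 library ran from -0.0659 to 0.0997. Paox ran from -0.0506 to 0.436 without 1 library. The log2 difference between groups in the ratio of synthesis to catabolism was 1.06 and became 1.23 with length scaling and 1.31 without Sat1. Paox had 70 to 306 counts a library, and its SE was 0.275 at full depth and 0.278 thinned to the smallest library.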

Other observations

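Some genes below the level set for naming moved further than any member, and these were chosen after their values were seen. Azin2, a relative of Azin1 that also captures antizyme, had 130, 57 and 128 counts in Eumyc 1, 2 and 3, against 1, 7 and 1 counts in WT 1, 2 and 3. Its level stayed low, at 1.94 ± 1.06 CPM in Eumyc and 0.0951 ± 0.0824 CPM in WT (SD, n = 3 each), while the log2 fold change was 4.12 (SE 0.68, edgeR adjusted p = 0.00167) and ran from 3.70 to 5.33 without 1 library. Ass1, which rebuilds arginine from citrulline, had 7.73, 5.32 and 6.83 CPM in Eumyc, against 0.613, 0.973 and 0.778 CPM in WT (log2 fold change 3.05, SE 0.25, adjusted p = 0.000171). It was called in all 17 alternatives run. Arg1, which makes ornithine from arginine and is abundant in some myeloid cells, had 1.06, 0.757 and 1.92 CPM in Eumyc, against 0.252, 0.108 and 0.719 CPM in WT (log2 fold change 2.00, SE 0.64, adjusted p = 0.0307). Markers of monocytes, neutrophils and B cells were higher in the same libraries, and their part in these 3 genes was not tested.

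Of the remaining family genes, the antizyme Oaz3 had 13 to 35 counts in Eumyc and 6 to 29 in WT, and Amd2 had 68 to 73 counts in Eumyc and 13 to 35 in WT. Neither passed the test (adjusted p = 0.372 and 0.175). Sat2 had 4 to 11 counts in Eumyc and 3 to 6 in WT and was below the filter.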
